A study of Gallus gallus with 60 samples.

Results

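The genes BG8, DMA and DMB2 of the chicken major histocompatibility complex (MHC) were described through the probe sets that the array's probe table assigns to 1 of them alone. These were 12 of the 38535 probe sets of the array, 10 for BG8, 1 for DMA and 1 for DMB2. Another 4 probe sets list BG8 together with a further gene and were named to neither. The genes had been selected on the measured difference between the layer lines in these same hens, so their line differences are given as a description without a test. Group size, side, the set of arrays and the relations from hen to hen were not used for the choice and were tested where the design allowed.

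Gene expression had been measured in the posterior cerebrum, dissected without meninges, of 60 laying hens aged 65 to 67 weeks. Each hen had 1 Affymetrix chicken array. All layers were fed and managed alike and vaccinated by a usual scheme, and stressed and unstressed ones were told apart at sampling. The hens were 28 Lohmann Selected Leghorn (LSL), a white-egg line, and 32 Lohmann Brown (LB), a brown-egg line, all from a small group housing system in which the lines were not mixed within a compartment. Of the LSL layers 13 lived in compartments of 36 hens and 15 in compartments of 54, and of the LB layers 15 and 17. The right side was sampled in 54 hens and the left side in 6, all of the latter among hens 31 to 60. Each line is a commercial cross, so a line difference holds for these flocks and not for a single genotype.

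The deposited values are on the log2 scale and had been centred on the median of each probe set, once over hens 1 to 30 and once over hens 31 to 60. They give differences between hens of 1 set of arrays and no level of expression, so neither the presence of a transcript nor that of the markers of cerebrum could be read from them. The first set held 15 LSL and 15 LB hens and the second 13 LSL and 17 LB hens. In RNA quality, 3 LB hens from compartments of 54 (hens 7, 8 and 16) were unlike the rest, with a difference between the 5' and 3' actin control probe sets of -1.69, -2.88 and -2.89 against -1.33 to 0.24 in the other 57. In bulk tissue, fewer cells of a type and less RNA per cell cannot be told apart.

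Class II molecules of the MHC carry peptides of engulfed proteins to the surface of antigen-presenting cells, which in the brain are mainly microglia and other macrophages. Inside the cell the groove of a new class II molecule is blocked by a fragment of the invariant chain CD74. A DM molecule, a pair of 1 DMA and 1 DMB chain, releases this fragment in the endosome and lets peptides exchange until a stable one is bound. BG genes form a large family of related butyrophilin-like membrane proteins with a single immunoglobulin-like domain, first known from chicken red blood cells, and the number of their copies varies between MHC haplotypes. Probes for one BG gene can therefore match another, and values of BG8 probe sets are uncertain in this respect, most of all for names ending in _x_at, which mark probes that also fit other sequences.

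The BG8 probe sets are numbered here by their difference between the lines, the most negative first. They are Gga.16205.1.S1_at (1), Gga.10213.1.S1_at (2), Gga.3273.5.S1_x_at (3), Gga.11025.1.A1_at (4), Gga.3693.1.A1_at (5), Gga.3273.6.S1_a_at (6), Gga.11870.1.A1_at (7), Gga.10783.1.A1_at (8), Gga.11025.1.A1_x_at (9) and GgaAffx.8952.1.S1_at (10). DMA is read by Gga.11016.1.S1_at and DMB2 by Gga.11537.1.S1_at. The names of BG8 probe sets 4, 5, 7, 8 and 9 hold A1, and those of 1, 2, 3, 6 and 10 hold S1. Whether both kinds read the same strand was not known from the sources used here.

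Of the 3 genes the lines differed most in BG8, and chiefly in its probe set 1. Among hens 1 to 30, its log2 value in LSL layers had a lowest value of -4.45, a median of -3.69 and a highest of 0.41, against -0.72, 0.49 and 1.30 in LB layers. Among hens 31 to 60 it ran in LSL layers from -3.06 over a median of -2.78 to 0.31, and in LB layers from -3.14 over 1.04 to 1.85. All 28 LSL hens lay below the LB median of their set, but the lines overlapped in both sets. In the fit with both sets, LSL minus LB was -3.06 on the log2 scale (standard error 0.32, n = 60), or 8.34-fold higher in LB. The difference was -2.86 (standard error 0.50) within the first set and -3.27 (standard error 0.36) within the second.

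These averages stand for no typical LSL hen, because the LSL values fell into 2 separate ranges. In the first set, 9 LSL hens lay between -4.45 and -3.39 and the other 6 between -0.68 and 0.41, with a gap of 2.71 between the ranges. The 6 were hens 9, 14 and 30 from compartments of 54 and hens 21, 27 and 28 from compartments of 36, and all of them lay within the range of the LB hens. In this order their actin differences were -1.33, -0.003, -0.32, 0.01, -0.35 and -0.21. Of the 9 lower hens, hens 15 and 19 had -0.36 and -0.37 and the others 0.04 to 0.20. Whether RNA quality has a part in the ranges was not tested. In the second set, 12 LSL hens lay between -3.06 and -2.30, and only hen 49, from a compartment of 36, lay apart at 0.31. Its actin difference was -0.04, against -0.15 to 0.16 in the 12. In the lower range of the second set, hens 51 and 52 had the same value at BG8 probe set 1, -3.06467, and so had hens 31 and 55, -2.95361. Whether the lower range lies at background cannot be read from centred values. LB hens were in the upper range with 1 exception, hen 58 from a compartment of 54, which at -3.14 was lower than every LSL hen of its set. Its 16 fellow LB hens began at -0.10. A split of the LSL hens of the first set by a gap of at least 1, with at least 3 hens on each side, was found in 32 of all 38535 probe sets (0.083%).

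BG8 probe set 2 was also lower in LSL. Its log2 value ran in LSL layers from -0.80 over a median of -0.31 to 0.44 in the first set and from -0.63 over -0.48 to 0.30 in the second. In LB layers it ran from -1.01 over 0.24 to 0.93 and from -0.30 over 0.28 to 0.80. The lines overlapped in both sets, with LB hen 4 lowest of all at -1.01, and 26 of 28 LSL hens were below the LB median of their set. The difference between the lines was -0.61 (standard error 0.09), made up of -0.47 in the first set, where it did not pass alone, and -0.74 in the second.

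**Figure D1:**
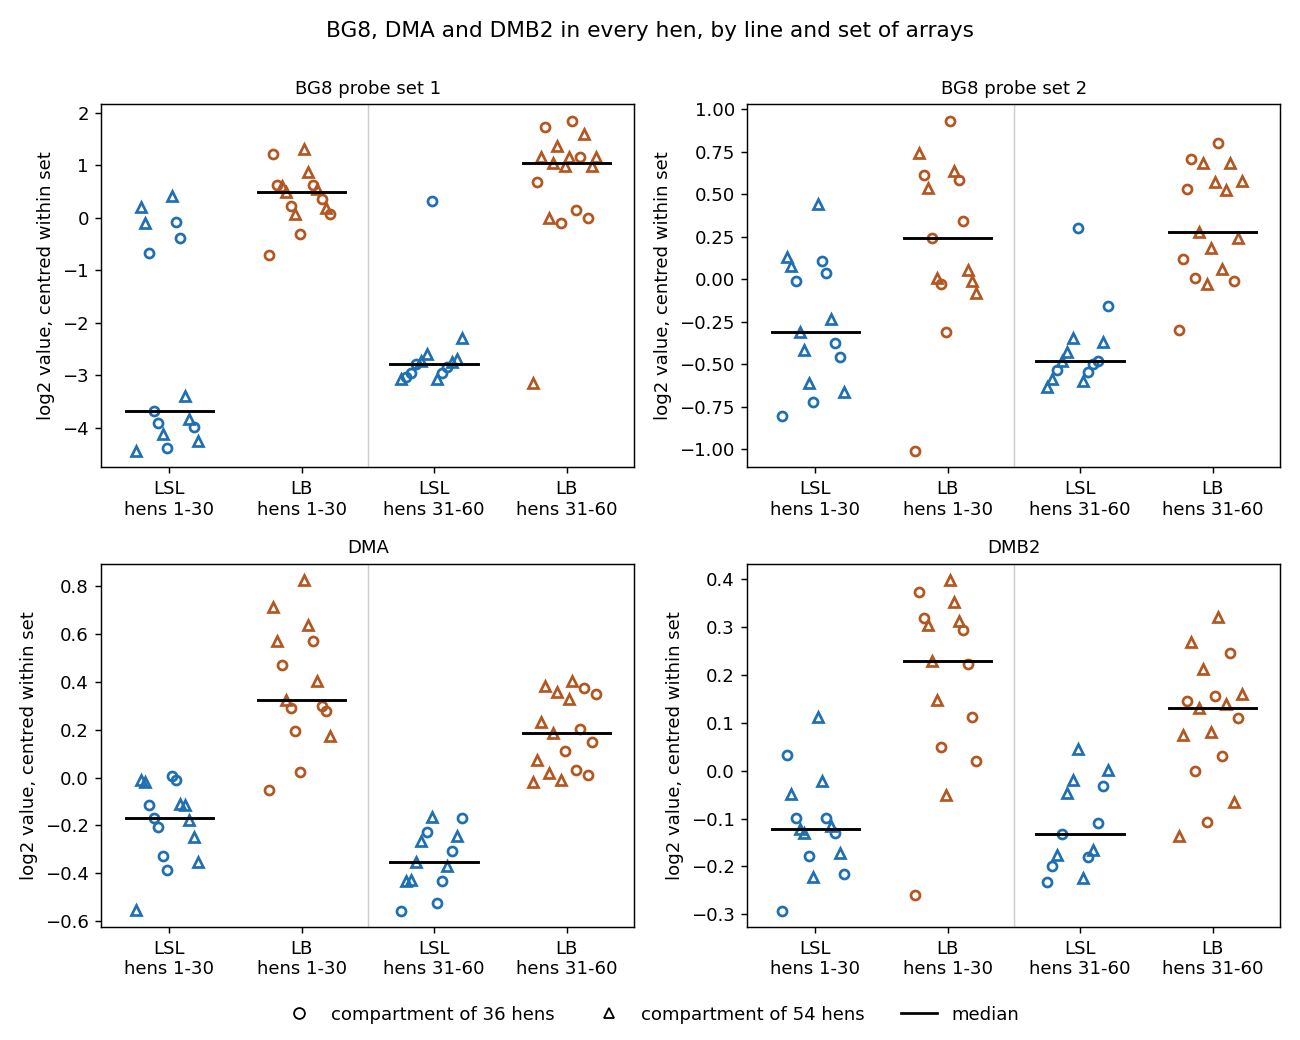
Log2 value, centred within each set of arrays, of 4 probe sets of BG8, DMA and DMB2 in every hen, by line and set, with circles for compartments of 36 hens, triangles for 54 and black bars for medians. At BG8 probe set 1 the LSL hens form 2 separate ranges, 9 and 6 hens in the first set and 12 and 1 in the second, while the DMA values of the lines do not overlap among hens 31 to 60.

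The same LSL hens were high or low at BG8 probe sets 1 and 2. Of the first set, the 9 LSL hens lowest at probe set 1 were also the 9 lowest at probe set 2, between -0.80 and -0.23, while hens 9, 14, 21, 27, 28 and 30 had 0.08, 0.13, 0.04, 0.11, -0.01 and 0.44. In the second set the 12 lowest were shared as well, and hen 49 was again the highest LSL hen at 0.30. LB hen 58 had -0.03 at probe set 2, above the 12 low LSL hens. Among the LB hens of its set only hen 36 was lower there, with -0.30. No pooled correlation of these probe sets is given over the LSL hens, since they fall into 2 ranges. Within a range the probe sets went together less closely, with Pearson's r = 0.31 over the 9 lower hens of the first set, 0.72 over the other 6 and 0.09 over the 12 lower hens of the second set.

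Among the other BG8 probe sets, number 7 came nearest to this pattern, sharing 8 of the 9 lowest LSL hens in the first set and all 12 in the second. Any pair of such lists must share at least 3 of 9 and 11 of 12. Its LSL values ran from -0.22 to 0.45 in the first set and from -0.43 to 0.07 in the second with hen 49 apart at 0.43. The remaining 7 BG8 probe sets shared 4 to 7 of the 9 in the first set and 11 of the 12 in the second. DMA shared 5 of 9 and DMB2 7 of 9, and both 11 of 12.

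BG8 probe set 3 differed to a lesser degree, and numbers 4 to 10 did not pass. Probe set 3 had a line difference of -0.24 (standard error 0.05), with medians of -0.09 in LSL and 0.10 in LB in the first set and of -0.07 and 0.06 in the second. All 28 LSL hens were below the LB median of their set, yet the ranges overlapped, and LB hen 8, which stood apart in RNA quality, had the highest value at 0.95. The other 7 BG8 probe sets had line differences between -0.07 and -0.01, with standard errors of 0.04 to 0.05, and none of them passed the threshold of the fit. Of these, numbers 4, 5, 7, 8 and 9 have A1 in their names, unlike numbers 1, 2 and 3. Within the second set alone, probe set 7 passed as well, with -0.19 (standard error 0.06), against 0.11 (standard error 0.08) in the first. At the 7 probe sets, LSL hens below the LB median of the set numbered between 14 and 20 of 28.

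**Figure D2:**
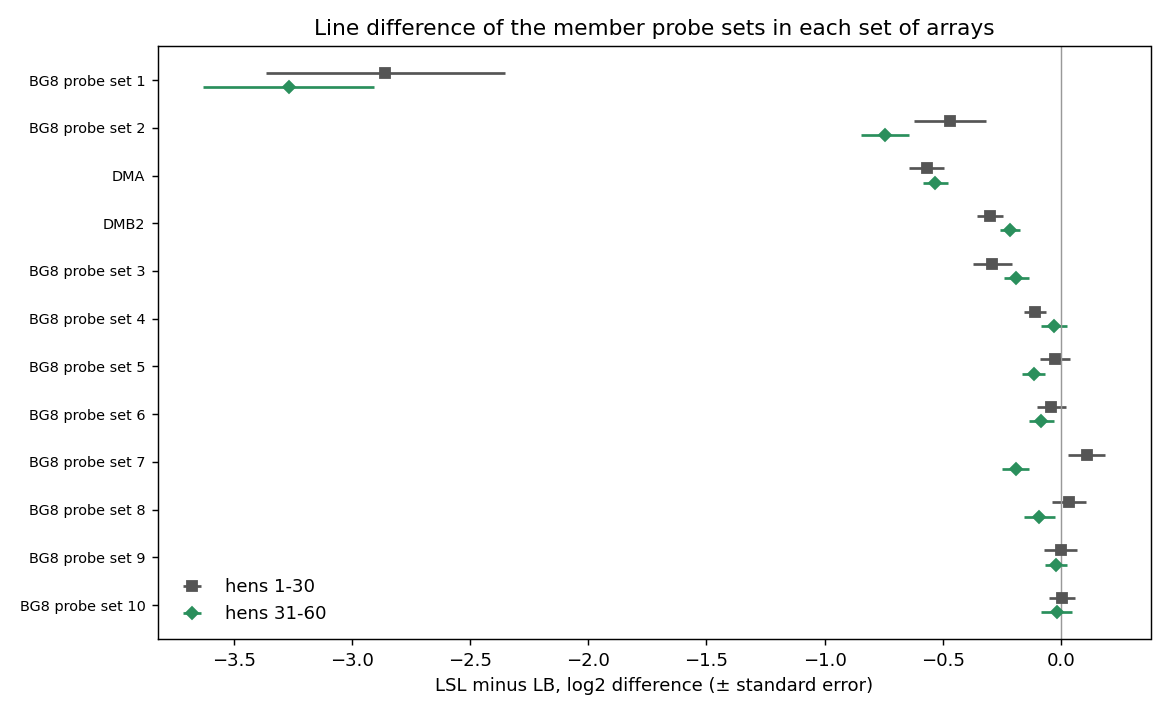
Log2 difference LSL minus LB of each of the 12 probe sets within hens 1 to 30 (squares) and hens 31 to 60 (diamonds), with standard errors. Both estimates lie below 0 by more than their standard errors for BG8 probe sets 1, 2 and 3, DMA and DMB2, while probe set 7 changes sign, from 0.11 in the first set to -0.19 in the second.

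In the fit over all probe sets (limma, Benjamini-Hochberg adjusted p below 0.05), 5 of the 12 members passed between the lines, all lower in LSL, where 18.3% of all probe sets passed, 10.2% as lower and 8.13% as higher in LSL. These were 3 of 10 for BG8, with DMA and DMB2. Since this contrast chose the genes, nothing is read from the count. The median line difference was -0.07 over the 10 BG8 probe sets and -0.01 over all probe sets.

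Of the 4 probe sets that list BG8 with another gene, 1 (Gga.11025.1.S1_at) went the other way. Its log2 value ran in LSL layers from -0.00 over 0.21 to 0.39 in the first set and from 0.16 over 0.35 to 0.66 in the second. LB layers had -0.45, -0.26 and 0.01, then -0.28, -0.11 and 0.03. Each of the 28 LSL hens exceeded the LB median of its set. In the second set the lines did not overlap, as at 0.548% of all probe sets. LSL was higher by 0.45 (standard error 0.03). The 3 others had differences of -0.08, -0.06 and -0.04 and did not pass. Probe sets that list BG8, alone or with another gene, thus stood lower at some and higher at another in the same hens. Whether BG8 or the other gene gives the signal of Gga.11025.1.S1_at was not tested.

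DMA, the alpha chain of the DM molecule, separated the lines most cleanly of the 3 genes. In the first set its log2 value ran in LSL layers from -0.55 over a median of -0.17 to 0.01 and in LB layers from -0.05 over 0.33 to 0.82, and 11 of 15 LSL hens were below every LB hen. In the second set LSL layers ran from -0.56 over -0.35 to -0.17 and LB layers from -0.02 over 0.19 to 0.40, so that all 13 LSL hens were below all 17 LB hens. Of all probe sets, 0.548% showed no overlap in the second set and 0.205% in the first. LSL was lower by -0.55 (standard error 0.05), 1.46-fold higher in LB, with -0.57 and -0.53 in the sets. LB hens 7, 8 and 16 had 0.40, 0.82 and 0.64, and without them the difference was -0.52.

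DMB2, one of the beta chains of DM, differed less. Its log2 value ran in LSL layers from -0.29 over -0.12 to 0.11 in the first set and from -0.23 over -0.13 to 0.04 in the second. LB layers had -0.26, 0.23 and 0.40, then -0.14, 0.13 and 0.32. Every one of the 28 LSL hens was below the LB median of its set, but just 7 were below every LB hen. LSL was lower by -0.26 (standard error 0.03), 1.197-fold higher in LB, with -0.30 in the first set and -0.22 in the second.

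Most hens that lay with the other line at BG8 probe set 1 did not do so at DMA. LSL hen 49 had -0.17 at DMA and -0.03 at DMB2, against a lowest LB value of -0.02 at DMA in its set. LB hen 58 had -0.01 at DMA and 0.21 at DMB2, while the highest LSL value of its set at DMA was -0.17. LSL hens 9, 14, 21, 27, 28 and 30 had DMA values of -0.25, -0.12, -0.17, -0.01, -0.39 and -0.11, all inside the range of the other LSL hens of their set. Hen 27 was also above the lowest LB hen of that set, LB hen 2 at -0.05, as 3 further LSL hens were.

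The lines and the sets of arrays were compared for a change of the line difference between sets. No member passed in that interaction, nor did any of the 38535 probe sets (0% by limma, 6.89% at an unadjusted p below 0.05), and the lowest adjusted p among the members was 0.717, for probe set 7. That probe set had an interaction of -0.30 (95% interval -0.50 to -0.10, unadjusted p = 0.00404 in the same fit).

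Group size was a contrast on which the genes had not been picked, and no member passed for it. Of all probe sets 4 passed between compartments of 54 and 36 hens (0.0104% by limma, 10.3% at an unadjusted p below 0.05), and 0 of the 12 members, of which 1 had an unadjusted p below 0.05. That 1 was BG8 probe set 6, with -0.10 (95% interval -0.18 to -0.02, unadjusted p = 0.016, adjusted p = 0.363 by limma). For BG8 probe set 1 the difference was -0.03 with an interval from -0.67 to 0.62, too wide to show a change of the size seen at the other probe sets. DMA had 0.07 (interval -0.02 to 0.16) and DMB2 0.06 (interval -0.01 to 0.13). These intervals leave room for small differences in either direction.

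Within LB layers, DMA had medians of 0.29 in compartments of 36 and 0.57 in compartments of 54 among hens 1 to 30, and of 0.15 and 0.21 among hens 31 to 60, with overlapping ranges in both sets. The fitted difference within LB was 0.13 (interval 0.01 to 0.26, unadjusted p = 0.0363, adjusted p = 0.385 by limma), where 11.8% of all probe sets had an unadjusted p below 0.05. BG8 probe set 6 had -0.12 within LB (unadjusted p = 0.0321, adjusted p = 0.376 by limma), and probe set 9 had -0.14 within LSL (unadjusted p = 0.0224, adjusted p = 0.345 by limma), where 12.1% had an unadjusted p below 0.05. LB hens 7, 8 and 16, which stood apart in RNA quality, all came from compartments of 54. Without them the DMA difference within LB was 0.09 (standard error 0.06, adjusted p = 0.938 by limma, a choice made after seeing the data). Within LSL layers the DMA difference was 0.01 (interval -0.12 to 0.14). No member passed within LB or within LSL, where 2 of all probe sets passed each time (0.00519%).

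The difference between the lines was also compared between group sizes. No member passed for this interaction and none of all probe sets did (0% by limma, 12.9% at an unadjusted p below 0.05). The lowest adjusted p among the members was 0.294, for BG8 probe set 9 with -0.21 (interval -0.37 to -0.05). For DMA the interaction was -0.12 (interval -0.30 to 0.06), for DMB2 -0.00 (interval -0.14 to 0.13) and for BG8 probe set 1 -0.27 (interval -1.56 to 1.03).

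**Figure D3:**
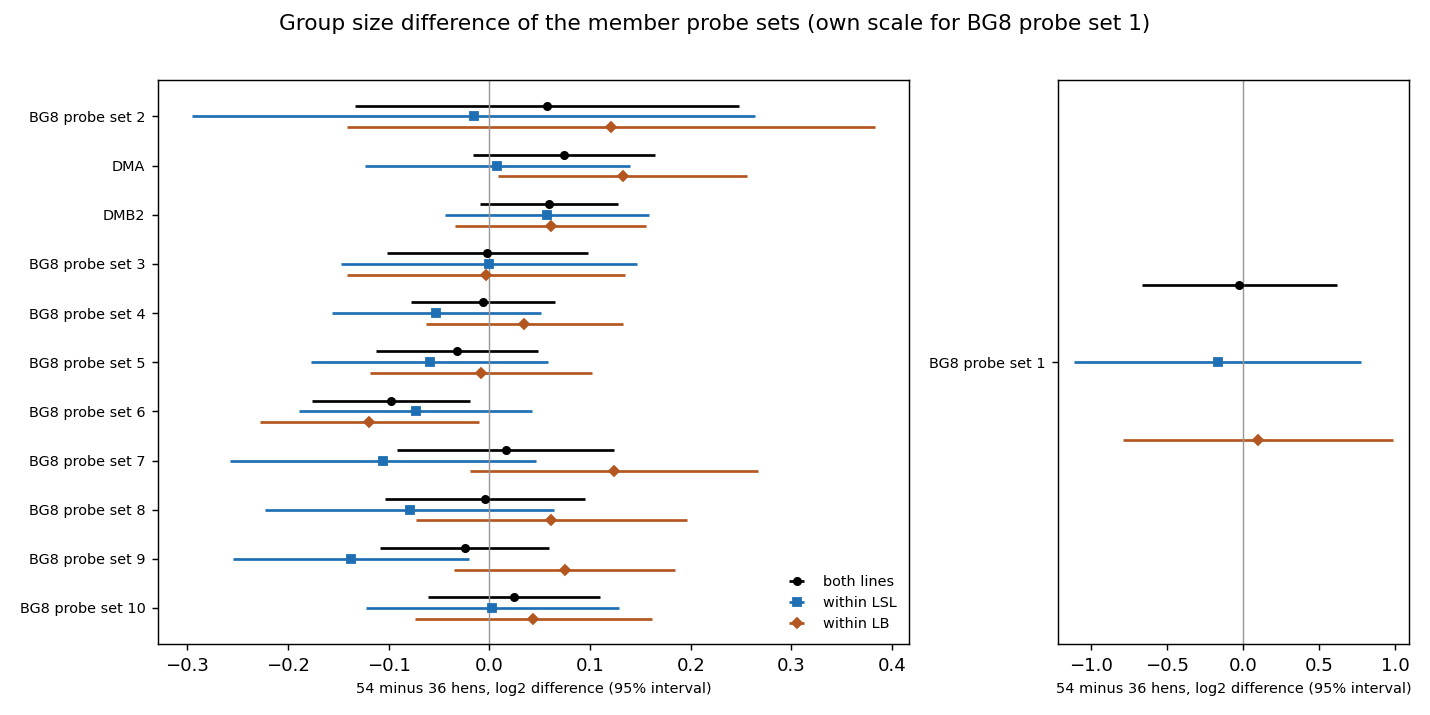
Log2 difference between compartments of 54 and 36 hens with 95% intervals for each of the 12 probe sets, over both lines (circles), within LSL (squares) and within LB (diamonds), with a scale of its own for BG8 probe set 1. Most intervals span 0, and none of the 12 probe sets passed after adjustment.

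Between the left and right side of the cerebrum, compared among hens 31 to 60, 0 of 12 members and 0 of all probe sets passed (0% by limma, 7.71% at an unadjusted p below 0.05). DMA had the lowest p among the members, with 0.14 higher on the left (interval 0.02 to 0.27, unadjusted p = 0.0236, adjusted p = 0.561 by limma). The comparison rests on 6 left sides, 2 of LSL and 4 of LB.

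From hen to hen, DMA went with BG8 probe set 2 in the LB line. After removal of the means of line and set, DMA and BG8 probe set 2 correlated over the 32 LB hens with r = 0.57 (permutation p = 0.00161, adjusted p = 0.0209 over 13 relations) and Spearman's rho = 0.55 (permutation p = 0.002, adjusted p = 0.026). The value was 0.58 in the first set and 0.55 in the second, 0.49 without the 2 hens farthest from the median of DMA, and 0.59 without LB hens 7, 8 and 16. Over the 28 LSL hens the relation was not found, with r = 0.15 (permutation p = 0.473, adjusted p = 0.755), 0.17 in the first set and 0.11 in the second. Spearman's rho was 0.02 (permutation p = 0.915, adjusted p = 0.915). The 2 ranges part the LSL hens at probe set 2 as well and enter these values. Whether the relation differs between the lines was not tested. Some genes on other chromosomes had a higher r with DMA over LB hens, such as C5orf51 with 0.80 and SYNGR2 with 0.73. The share of all probe sets with as high an r as BG8 probe set 2 was not taken, so the relation is not shown to be particular to these genes.

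DMA and DMB2, the 2 chains of DM, were not found to go together from hen to hen. Over LB hens r was 0.20 (permutation p = 0.328, adjusted p = 0.711), with 0.47 in the first set and -0.36 in the second, and over LSL hens 0.21 (permutation p = 0.295, adjusted p = 0.711), with -0.02 and 0.60. BG8 probe set 1 had r between 0.03 and 0.07 with probe set 2, DMA and DMB2 over LB hens, with adjusted permutation p of 0.755 to 0.855. Hen 58, which lay apart at probe set 1, enters these values. Without the 2 farthest hens, r was -0.10, -0.15 and 0.24. With probe set 2 it was -0.24 over the 16 LB hens of the second set without hen 58. The 10 BG8 probe sets among themselves had a median r of 0.09 over the 45 pairs in LB hens, from -0.30 to 0.65, the highest for probe set 2 with probe set 7. These pairs share their arrays and may differ in target, so the values are a description.

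The gene most like BG8 probe set 1 from hen to hen was ZNF692 (probe set Gga.19184.1.S1_at), a zinc finger gene that in the RefSeq order of the assembly GRCg7b is the 4th measured gene from BG8 on chromosome 16. Over the 60 hens, the residuals of BG8 probe set 1 and of ZNF692 had r = 0.86 and rho = 0.85, values into which the 2 ranges of the LSL hens enter. The next genes, ZNF326, FAT4, RBM19 and PARP8, lie on other chromosomes and had r of 0.53, 0.52, 0.47 and 0.47. As the values fall into ranges, r was also taken within them. It was 0.69 over the 15 LB hens of the first set and 0.75 over 16 LB hens of the second without hen 58, but 0.36 over the 9 lower LSL hens of the first set, 0.62 over the other 6 and 0.05 over the 12 lower ones of the second.

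ZNF692 had been chosen for its likeness to BG8 probe set 1 in these same hens, so what follows is a description. It parted the LSL hens in the same way. Its log2 value ran in LSL layers from -1.81 over -0.90 to 0.45 in the first set and from -1.31 over -0.79 to 0.12 in the second, and in LB layers from -0.31 over 0.32 to 0.73 and from -0.37 over 0.62 to 0.995. The 9 LSL hens lowest at BG8 were the 9 lowest at ZNF692, at or below -0.86, and the other 6 began at -0.21. In the second set the 12 lowest were shared, at or below -0.55, and hen 49 had 0.12. LB hen 58 was the lowest LB hen of its set at ZNF692 as well, with -0.37, yet above the 12. ZNF692 was lower in LSL by -1.10 (standard error 0.12), given without a test because of that choice. Its other probe set had 0.05 (standard error 0.03).

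**Figure D4:**
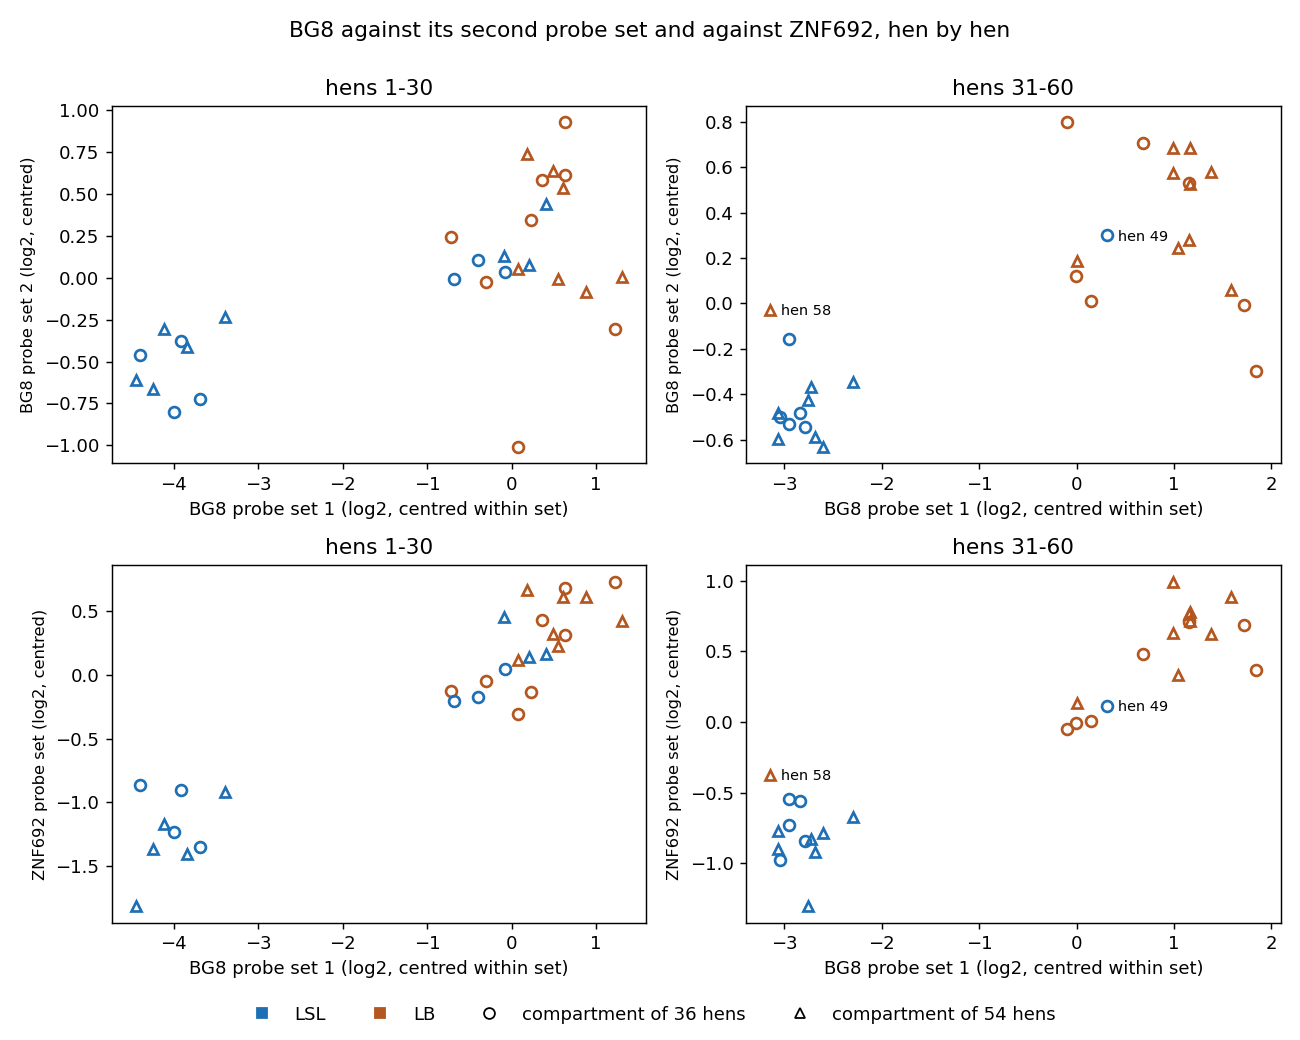
Log2 value of BG8 probe set 1 on the x axis against BG8 probe set 2 (upper row) and ZNF692 (lower row) on the y axis, 1 point per hen, with the line by colour and the group size by shape. The 9 and 12 low LSL hens stand at the lower left of every panel, and hen 49 lies among the LB hens. LB hen 58 lies with the low LSL hens at BG8 probe set 1, but above them at probe set 2 and at ZNF692.

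For DMA the most like genes were C5orf51, MORN4, SPCS1, a subunit of the signal peptidase, SYNGR2, a synaptogyrin, and RHBG, an ammonium transporter, with r of 0.68, 0.68, 0.68, 0.67 and 0.66. Without LB hens 7, 8 and 16 these were 0.60, 0.63, 0.62, 0.59 and 0.60. By line, r was 0.80, 0.72, 0.72, 0.73 and 0.65 over LB hens and 0.33, 0.61, 0.58, 0.53 and 0.69 over LSL hens. For DMB2 the most like genes were TLR21, ABHD17B, BCL2A1, CTSK and CCNK, with r of 0.61, 0.58, 0.57, 0.56 and 0.56. TLR21 is a chicken receptor for bacterial DNA, BCL2A1 an inhibitor of cell death and CTSK a lysosomal protease. Without LB hens 7, 8 and 16 r was 0.56, 0.54, 0.55, 0.49 and 0.49. By line, it was 0.59, 0.62, 0.62, 0.68 and 0.60 over LB hens and 0.67, 0.48, 0.48, 0.21 and 0.47 over LSL hens. All of these values are across the same 60 arrays and are given without a test.

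Of 8 gene names listed as class II chains and loading partners of DM, only 2, BLB1 and CD74, had probe sets assigned to them alone. Few of these probe sets passed, and nothing is known here of the other partners. Of 8 probe sets of the class II beta chain BLB1 and the invariant chain CD74, 1 passed, and it was higher in LSL (12.5%, against 18.3% of all probe sets). It was 1 of 5 for BLB1, with 0.20 (standard error 0.07, adjusted p = 0.0277 by limma). Its name ends in _x_at, so its probes also fit other sequences. The other 4 BLB1 probe sets had -0.01 to 0.16, and the 3 of CD74 had -0.14 (adjusted p = 0.0508 by limma), 0.04 and -0.00. The median of the list was 0.06.

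Among transcription factors that act on class II promoters or belong to their families, 2 of 26 probe sets passed, both higher in LSL. This was 7.69%, against 18.3% of all probe sets. The 2 were RFX3 with 1.75 (standard error 0.12) and CREB1 with 0.91 (standard error 0.09). Other probe sets of both genes had differences between -0.04 and 0.02, and RFX3 is best known from genes of cilia. CIITA, the master regulator of class II genes, had 0.01 to 0.05 at its 4 probe sets and did not pass.

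Of 16 probe sets of endosomal proteases and the reductase that prepare peptides, 1 was higher and 3 were lower in LSL. This was 25%, against 18.3% of all probe sets. CTSH had 0.28 (standard error 0.07). CTSA had -0.20 (standard error 0.03), CTSS, which trims the invariant chain, -0.20 (standard error 0.06) and CTSB -0.19 (standard error 0.02), although another CTSB probe set had 0.05. Of 25 gene names listed as BG and butyrophilin family, only 3, BTN1, BTN1A1 and MOG, had probe sets assigned to them alone. None of these 4 probe sets passed (0%), with differences between -0.04 and 0.10, and 1 had an unadjusted p below 0.05. No BG gene is among the 3, so this list shows nothing of other BG genes.

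Along the MHC, from BG8 to CD1C in the RefSeq order of GRCg7b, 30 genes were measured by 64 probe sets. Leaving out BG8, DMA and DMB2, 4 of the 52 remaining probe sets were higher and 4 lower in LSL (15.4%, against 18.3% of all probe sets). They belonged to 7 of 27 genes. Only ZNF692 and the class I gene BF2 had a difference of at least 1 in size. BF2, which presents peptides to cytotoxic T cells, had 1.55 (standard error 0.20, adjusted p = 4.75e-09 by limma) at 1 probe set and 0.22 at another. The names of both end in _x_at, so their probes also fit other sequences. The other BF2 probe sets, whose names do not end so, had -0.03 and 0.03. The measured genes nearest to DMA and DMB2 hardly differed. BRD2, before DMA, had 0.04 and 0.03, TAPBP, which helps to load class I, -0.06, and the peptide transporter genes TAP1 and TAP2, behind DMB2, -0.01 and 0.03.

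Besides that of the further BF2 probe set, the smaller differences past the threshold lay between BG8 and DMA, that of BLB1 among them. KIFC1, a motor protein gene next but one to BG8 among the measured genes, had -0.18, TRIM7.1 -0.16, TRIM27.2 -0.10 and RACK1, a ribosome-bound scaffold, 0.13. BTN3A3L1, the next measured gene from BG8, had 0.00 and did not pass. Apart from BG8, DMA and DMB2, the genes with a lower probe set past the threshold lay on the side of BG8, up to TRIM27.2. Those with a higher one came after them, from RACK1 to BF2, but DMA and DMB2, both lower, lie among these. The other probe sets of TRIM7.1 had -0.08 to 0.01 and that of TRIM27.2 -0.04, and none of them passed. An order of the differences along the stretch was not tested. C4A, a complement gene listed with the MHC but outside this stretch in the RefSeq order, had -0.27 at 1 probe set, made up of -0.10 in the first set and -0.45 in the second, and -0.43 without LB hens 7, 8 and 16. Its other probe set had 0.05 and did not pass.

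**Figure D5:**
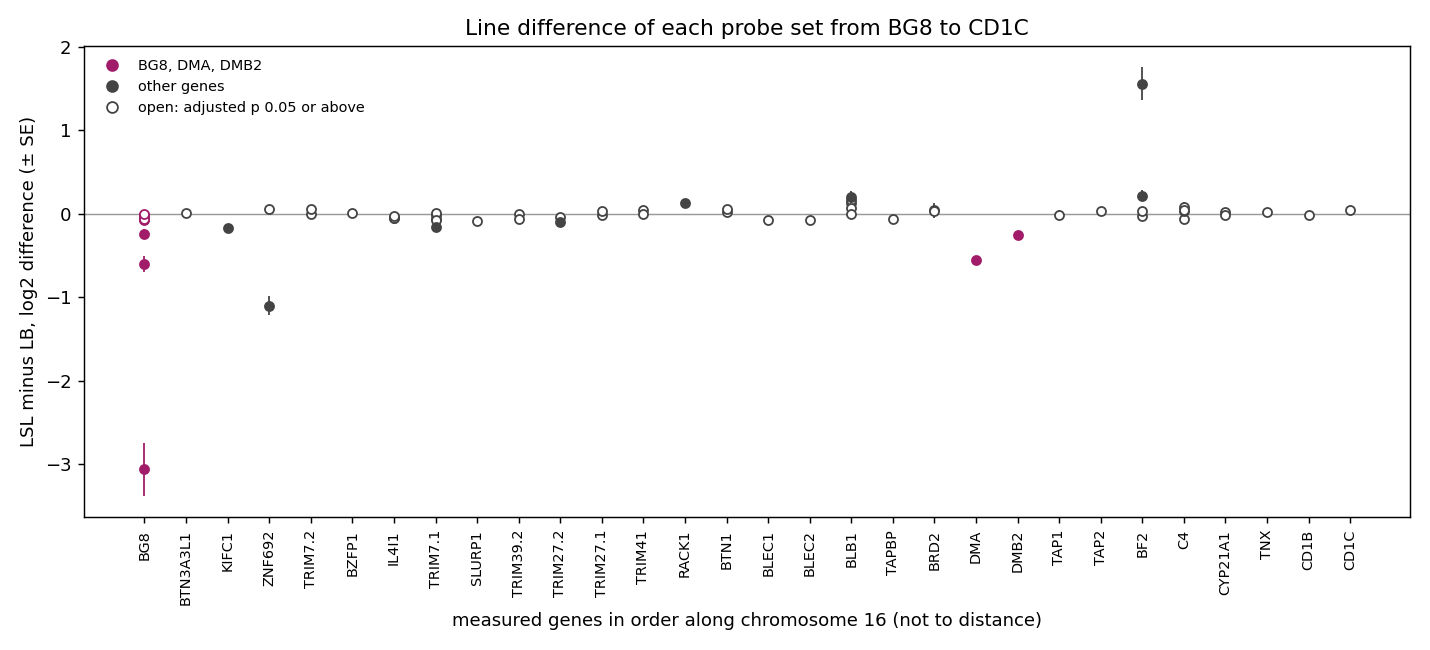
Log2 difference LSL minus LB with standard error of each probe set of the 30 measured genes from BG8 to CD1C, in gene order and not to distance, with BG8, DMA and DMB2 in colour and open points where the adjusted p was 0.05 or above. Apart from the coloured genes, only ZNF692 at -1.10 and BF2 at 1.55 reach a difference of 1 in size.

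Markers of cells that could carry these genes were given beside the members. Of 22 probe sets of microglia and macrophage markers, 1 passed, MARCO with 0.12 (4.55%, against 18.3% of all probe sets). None passed as lower in LSL. Without LB hens 7, 8 and 16, 2 passed as lower, SPI1 with -0.20 and CSF1R with -0.10, where all hens gave -0.18 and -0.06, and with no block for the set 1 passed as lower. The mean over the list lay between -0.26 and 0.50 in LSL hens and between -0.21 and 0.19 in LB hens. DMA went with this mean over LSL hens with r = 0.50 (permutation p = 0.0107, adjusted p = 0.0696) and rho = 0.53 (permutation p = 0.00527, adjusted p = 0.0343). Over LB hens r was 0.10 (permutation p = 0.604, adjusted p = 0.755). Without the 2 farthest hens, r was 0.44 in LSL and 0.36 in LB. A difference between the lines in this relation was not tested. For DMB2 r was 0.16 in LSL and 0.27 in LB (adjusted permutation p = 0.755 and 0.488).

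Leukocyte markers passed at 9 of 29 probe sets (31%, against 18.3% of all probe sets), 7 higher and 2 lower in LSL. Most of the higher ones were probe sets of IGLL1 alone, whose other probe sets had -0.06 to 0.05 and did not pass. By gene, 3 of 15 were higher, 2 lower and 10 did not pass. The higher ones were led by JCHAIN and IGLL1, genes of antibody-forming cells, with 1.43 and up to 0.95, and also held CD4 with 0.13, while CD247 and CD72 had -0.22 and -0.11. The list's mean ran from -0.52 to 0.58 in LSL and from -0.59 to 0.34 in LB. None of 11 red blood cell probe sets passed (0%), with a mean from -0.40 to 1.32 in LSL and from -0.43 to 0.53 in LB. Among resident cells of the brain, 5 of 25 neuron probe sets passed (20%), 2 higher and 3 lower in LSL. The 3 lower ones were all of SYT1, with -1.03, -0.98 and -0.80. By gene, 2 neuron markers were higher, 1 lower and 9 did not pass. For astrocytes 1 of 9 passed (11.1%), for oligodendrocytes 2 of 11 (18.2%), for endothelial and mural cells 4 of 28 (14.3%) and for meninges and choroid plexus 2 of 30 (6.67%). The part of these cells in the differences of BG8, DMA and DMB2 was not tested.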

How the data were processed

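RNA of the posterior cerebrum of 60 hens was measured with 1 array each, and line, group size and side were taken from the labels. The authors made the deposited log2 values with RMA, that is background correction and quantile normalization at probe level, and centred them. The median of all 38535 probe sets was 0 within 1e-06 in hens 1 to 30 and again in hens 31 to 60, so the set of arrays entered every fit as a block. Detection cannot be read from centred values and no probe set was filtered out. The number of arrays limits the precision. The housing compartment and tier of each hen, and the split into stressed and unstressed layers used at sampling, were not known from the sources used here, and hens of 1 compartment counted as independent.

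Differences were fitted with limma 3.58.1 (functions lmFit and eBayes) in R 4.3.3, with the package data.table (1.17.8), over all probe sets, two-sided, adjusted by Benjamini-Hochberg with a threshold of 0.05. Group size fits held line and set. Relations between genes used residuals from the means of line and set, 100000 permutations (1e+05) within sets, and adjustment over 13 relations. The fit was tested on simulated data for all 38535 probe sets, where it found 99 of 100 line changes of 0.5 and 97 of 100 group size changes of 0.5 on the log2 scale. The simulated noise was normal and independent between probe sets, and the changed probe sets were drawn at random. These shares therefore need not hold for the members, least of all for BG8 probe set 1, whose LSL values fell into separate ranges.

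Gene names came from the array's probe annotation (27178 probe sets with 1 symbol, 177 with several, 11180 with none) and gene order from RefSeq, assembly GRCg7b. Named were all probe sets of the members, up to 4 genes per list with the largest passing line differences, fixed partners whatever their value, and the 5 genes most like each member. In the leukocyte list and the region, CD72, RACK1, BTN3A3L1, KIFC1, TRIM7.1 and TRIM27.2 are named beyond that number. The members and lists were chosen with earlier results of these data known. Alternatives were each set alone, no block, quantile scaling, array medians, robust and weighted fits, actin as covariate, right sides only, the methods' t-test, and leaving out LB hens 7, 8 and 16.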

Additional observations from a re-analysis of the deposited data

How the results depend on the processing

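The line differences of the 12 members kept their direction and their side of the threshold in 125 of 132 alternative fits. In hens 1 to 30 alone, BG8 probe set 2 no longer passed, with -0.47, and probe sets 7, 8 and 10, which had not passed, had 0.108, 0.0332 and 0.00352. In hens 31 to 60 alone, probe set 7 passed with -0.192. Probe set 9 had 0.00351 without LB hens 7, 8 and 16, and probe set 10 had 2.57e-05 with array medians. The number of probe sets past the threshold between the lines was 7051 and became 2996 in hens 1 to 30 alone. For group size the number was 4 and became 0 in hens 1 to 30 alone, with right sides only, with actin as covariate and with the methods' t-test, 127 in hens 31 to 60 alone, and 9 without LB hens 7, 8 and 16 and with array weights. The interaction of line and group size had 0 and became 1 in hens 1 to 30. No member was among the calls for group size or the interaction.

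Some differences near 0 that had not passed changed sign, and the cause was not tested. For group size in hens 1 to 30 alone, BG8 probe set 8 had 0.0138, probe set 4 had 0.0325 and probe set 1 had 0.164. In hens 31 to 60 alone, probe set 2 had -0.0122, probe set 9 had 0.00784, probe set 7 had -0.0476 and probe set 3 had 0.00991. Right sides only gave 0.00196 for probe set 8 and 0.00459 for probe set 4, quantile scaling 0.0876 for probe set 1 and array weights -0.000441 for probe set 7. For the interaction of line and group size, DMB2 had 0.00174 with no block, 0.0283 in hens 31 to 60 alone, 0.0314 without LB hens 7, 8 and 16, 0.0156 with quantile scaling, 0.00868 with array medians, 0.0262 with actin and 0.0158 with array weights. BG8 probe set 2 had 0.0236 in hens 1 to 30, and in hens 31 to 60 probe set 3 had -0.0221, probe set 5 had 0.0685, probe set 10 had 0.187 and DMA had 0.0268. Quantile scaling gave 0.0439 for probe set 1. The interaction of line and set was -0.0233 for DMA without LB hens 7, 8 and 16. Spearman's rho of BG8 probe set 1 over LB hens was -0.119 with probe set 2 and -0.0407 with DMA, where r was 0.07 and 0.07.

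By likeness without removal of the line means, ZNF692 stayed first for BG8 with r = 0.94, and the others became ZNHIT3, ENOX1, RNF207 and RDH14. SYNGR2 fell to r = 0.13 with DMA and CCNK to 0.30 with DMB2. Microglia markers past the threshold numbered 2 with no block and 3 without LB hens 7, 8 and 16, of which 1 and 2 were lower in LSL, astrocyte markers 0 and red blood cell markers 2 without these hens. No paired analysis was possible because no number in the labels is shared by hens of different groups. Centred values leave signal over background unknown, and values of probe sets near background would understate a difference.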
